A study of Mus musculus with 19 samples.

Results

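The Hox gene clusters of the mouse were examined in angiosarcomas, aorta and muscles from opposite ends of the trunk. Members were all genes whose symbol is Hox followed by a cluster letter (a, b, c or d) and a paralog number. Each was read from a probe set that carried its symbol alone; of several such probe sets, the brightest on average over the 19 arrays was taken. Of the 39 Hox genes in the RefSeq gene table, 36 were measured in this way, among 22180 genes tested in all. They were 9 genes of HoxA on chromosome 6, 10 of HoxB on chromosome 11, 9 of HoxC on chromosome 15 and 8 of HoxD on chromosome 2. The others were not analysed here; Hoxa11 and Hoxd4, for example, were listed only on probe sets shared with another gene.

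RNA was measured on Affymetrix arrays in 7 tumors, 4 aortas, 4 quadriceps femoris muscles of the thigh and 4 sternocleidomastoid muscles of the neck, 1 array per sample. The tumors came from aP2-Cre/+;DicerFlox/- mice, in which Cre driven by the aP2 (Fabp4) promoter acts on a floxed Dicer allele opposite a null allele, and the aortas and muscles came from wild type mice. All samples shared a mixed background of the C57Bl/6 and 129X1/SvJ strains and the labels state no treatment or age, so tissue and genotype differed together in each tumor comparison. The labels do not say whether samples of a group came from separate animals, so p-values measure only the spread between these samples, which may be technical, and replicate numbers only name samples in accession order. The study set the tumors against aorta and skeletal muscle, and the muscles are kept apart here because they lie at different body levels. The tissue type labels give no body site for the tumors and no segment for the aortas. Body site therefore cannot be told apart from tissue and genotype in the tumor comparisons, or from other differences between tumors.

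Hox genes encode homeodomain transcription factors that give cells along the body axis their regional identity in the embryo. Their order along each cluster follows the body axis: genes near the 3′ end, with low paralog numbers, act from the hindbrain and neck backwards, and genes near the 5′ end, with high paralog numbers, act in the lower trunk and limbs. Adult connective tissue, vessels and muscle keep part of this pattern. Hox proteins bind DNA together with cofactors of the Pbx, Meis and Pknox families. The clusters also hold microRNA genes, whose hairpins need Dicer to become mature microRNAs.

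The cluster microRNAs are shown because they lie between Hox genes, Dicer makes them, and several Hox mRNAs are known targets of them. The sequences are mature microRNAs from RefSeq on build GRCm38.p6, written 5′ to 3′ with the seed, bases 2 to 8, in capitals.
mmu-miR-10a-5p: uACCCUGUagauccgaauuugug
mmu-miR-10b-5p: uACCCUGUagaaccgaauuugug
mmu-miR-196a-5p: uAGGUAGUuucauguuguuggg
mmu-miR-196b-5p: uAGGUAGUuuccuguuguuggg
The miR-10 pair share the seed ACCCUGU, and the miR-196 pair share the seed AGGUAGU. Mir10a lies in HoxB (chr11:96317186-96317208, plus strand) and Mir10b in HoxD (chr2:74726074-74726096, plus strand). The miR-196a-5p sequence is encoded in HoxB by Mir196a-1 (chr11:96265187-96265208, plus strand) and again in HoxC by Mir196a-2 (chr15:102973365-102973386, plus strand). Mir196b lies in HoxA (chr6:52230129-52230150, minus strand).

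Values are deposited log2 intensities, and array medians lay between 5.35 and 5.48. Differences between groups were tested with limma on all 19 arrays, and a gene was said to rise or fall where its p-value, adjusted by Benjamini-Hochberg over the 22180 genes, was under 0.05. As a description, a gene was taken to be above background in a tissue when its mean there exceeded the 95th percentile of 1105 olfactory receptor genes, which was 5.31 to 5.34 log2 units. Endothelial markers averaged 9.96 to 10.9 log2 units in the tumors against 7.84 to 8.76 in the normal arrays, skeletal muscle markers 11.8 to 12.4 in the muscles, and smooth muscle markers 9.90 to 10.3 in aorta. The aortas also held brown adipocyte markers (10.6 to 11.1) and heart muscle markers (9.42 to 10.2, against 5.22 to 6.04 elsewhere), and the tumors held skeletal muscle markers at 5.08 to 10.6. In such bulk samples fewer cells of a type and less RNA per cell cannot be told apart. Dicer1, the gene targeted in the tumors, lay at 8.17 to 8.80 there and 8.02 to 8.91 in the normal arrays, and passed the threshold in no tumor comparison (limma adjusted p = 0.0714 to 0.515). Its probe set's place relative to the floxed part is not given in the sources used here, and cells without Cre keep the gene, so it does not check the labels.

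Across the 4 tissues, 24 of the 36 Hox genes were above background in tumors, 19 in aorta, 26 in quadriceps and 18 in sternocleidomastoid, against 61.2%, 60.7%, 60.9% and 60.2% of all genes. The tissues differed mostly in which HoxA and HoxC genes were above background. In HoxA all 9 measured genes were above background in quadriceps and tumors, whereas in aorta the 6 were Hoxa2 to Hoxa7, with Hoxa9, Hoxa10 and Hoxa13 under it, and in sternocleidomastoid the 7 were Hoxa2 to Hoxa7 and Hoxa13. In HoxC 8 of 9 were above background in quadriceps, the exception being Hoxc5, while 4 of 9 were in tumors and in aorta (Hoxc4, Hoxc6, Hoxc8 and Hoxc13) and 3 of 9 in sternocleidomastoid (Hoxc4, Hoxc12 and Hoxc13). HoxB varied less: Hoxb2 to Hoxb5 and Hoxb9 were above background in all 4 tissues, Hoxb6 in all but sternocleidomastoid, and Hoxb7 in tumors alone. In HoxD, Hoxd8, Hoxd10 and Hoxd12 were above background in all 4 tissues and Hoxd3 in tumors alone. Several genes lay near the line, and the counts depend on where it is drawn.

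**Figure D1:**
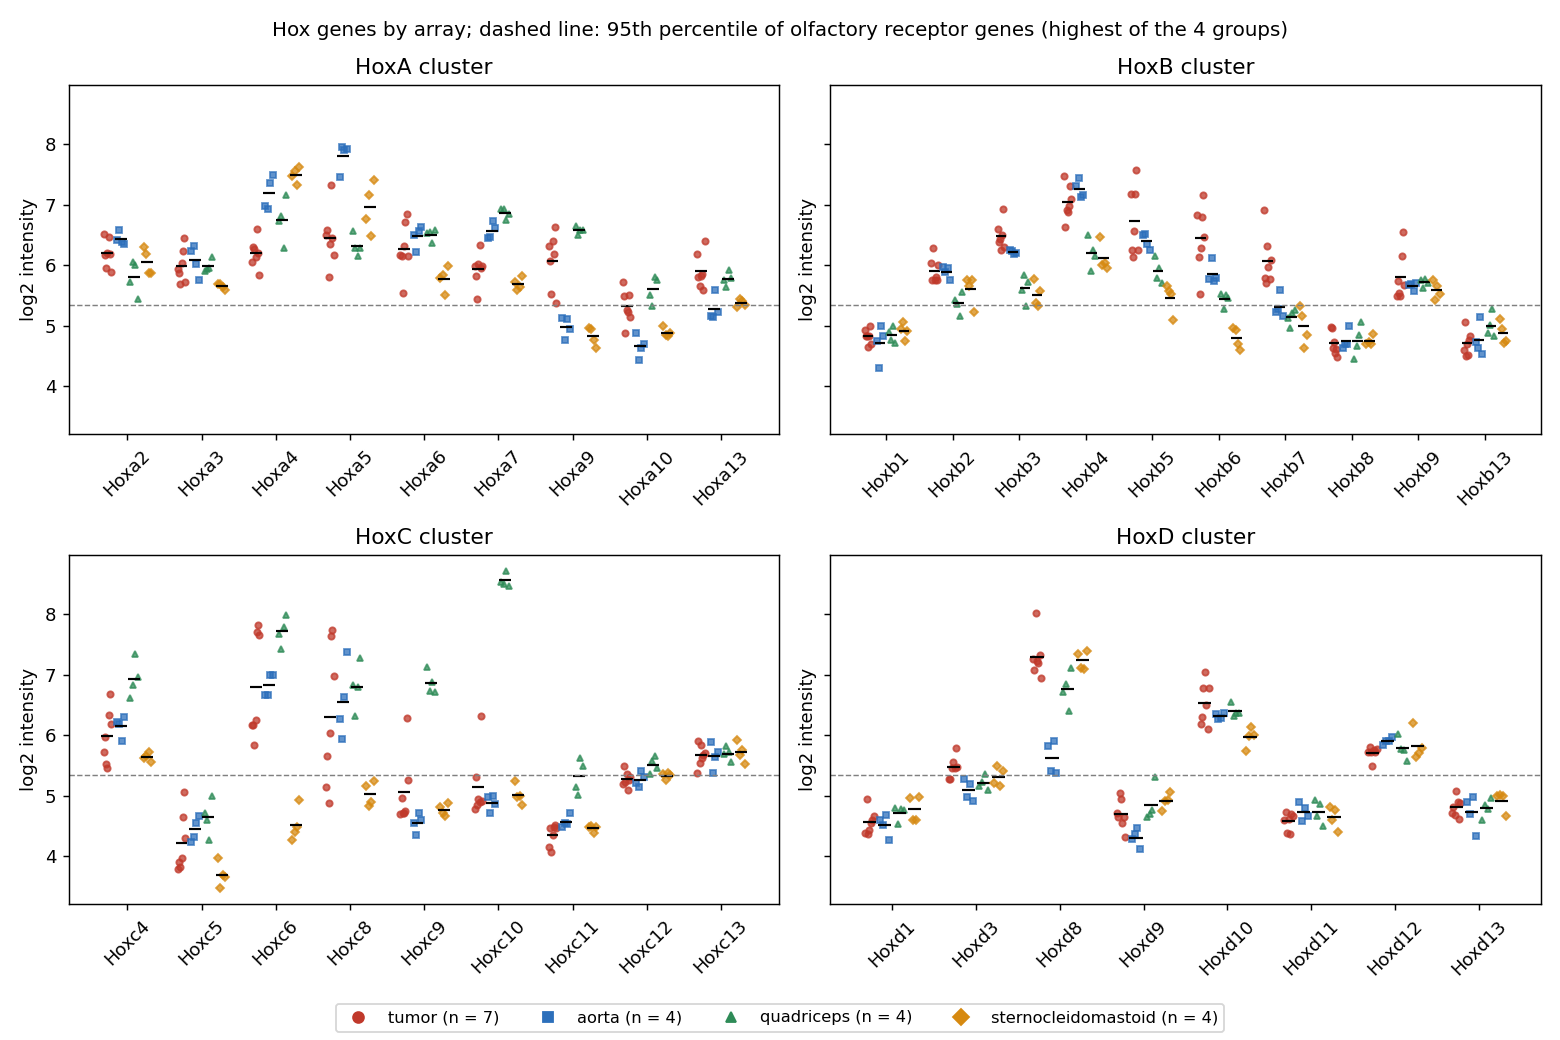
Deposited log2 intensity of each of the 36 Hox genes (x axis, by cluster and paralog number) in every array, with 7 tumors and 4 arrays of each normal tissue as points, group means as bars and the highest olfactory receptor 95th percentile (5.34) as a dashed line. Hoxc10 stands at 8.47 to 8.72 in the quadriceps arrays and at or below 6.31 in all others, and Hoxc6 falls into high and low tumors.

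The neck muscle was set against the thigh muscle first, since both are wild type skeletal muscle and differ in body level. Quadriceps is a limb muscle and sternocleidomastoid is not, so body level and limb position cannot be told apart here. Genes of HoxC and, in HoxA, Hoxa7, Hoxa9 and Hoxa10 were lower in sternocleidomastoid than in quadriceps, and no Hox gene passed the threshold as higher. In all, 8 of 36 Hox genes fell (Hoxa7, Hoxa9, Hoxa10, Hoxc4, Hoxc6, Hoxc9, Hoxc10 and Hoxc11) and 0 rose, where 0.198% of all genes fell, 0.234% rose and 0.433% did either. Hox genes were thus 8 of the 44 genes that fell. The groups did not overlap, with sternocleidomastoid lower, for 16 of 36 Hox genes against 3.6% of all genes, and with sternocleidomastoid higher for 1, Hoxa4, against 4%. By cluster the calls were 3 of 9 in HoxA, 5 of 9 in HoxC, and none in HoxB (0 of 10) or HoxD (0 of 8), with median differences of -0.40, -1.30, -0.12 and 0.06 log2 units, sternocleidomastoid minus quadriceps, beside -0.0037 over all genes.

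Hoxc10, a 5′ gene known for its role at lumbar level and in the hindlimb, separated the muscles most clearly. It measured 8.54, 8.51, 8.72 and 8.47 log2 units in the quadriceps arrays and 5.24, 4.97, 5.0 and 4.85 in the sternocleidomastoid arrays. All thigh values were high and all neck values low, with no overlap. The difference was -3.54 ± 0.24 log2 units (SE, 4 against 4 arrays, limma adjusted p = 1.67e-07), the smallest p-value of all 22180 genes. Because the neck mean of 5.02 was under the olfactory background, the difference amounts to at least 9.43-fold against that background.

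Hoxc6, a central gene of the thoracic region that is also active in forelimb development, was at 7.67, 7.42, 7.79 and 7.99 in the quadriceps arrays and 4.27, 4.40, 4.48 and 4.93 in the sternocleidomastoid arrays. The groups were again fully apart. Hoxc6 fell by 3.2 ± 0.38 log2 units (limma adjusted p = 0.000131), at least 5.26-fold against the background. Hoxc9, the next gene towards the 5′ end that passed the threshold, was at 7.12, 6.73, 6.87 and 6.71 in quadriceps and 4.81, 4.72, 4.67 and 4.87 in sternocleidomastoid. Its neck values lay under the background and all below the thigh values, a difference of -2.09 ± 0.25 (limma adjusted p = 0.000155), at least 2.90-fold.

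The other genes that fell differed less. In HoxA, Hoxa9, a 5′ gene also known in blood-forming cells, differed by -1.75 ± 0.21 log2 units and its neighbour Hoxa7 by -1.17 ± 0.13 (limma adjusted p = 0.000131 and 0.000101). In HoxC, Hoxc4 differed by -1.30 ± 0.21 and Hoxc11 by -0.85 ± 0.13 (limma adjusted p = 0.00492 and 0.0014), Hoxc11 lying close to background in the thigh (5.32 ± 0.29, SD, n = 4) and under it in the neck. Hoxc8 and Hoxc5, which lie between the called HoxC genes, did not pass: Hoxc8 measured 6.81 ± 0.39 in quadriceps and 5.03 ± 0.20 in sternocleidomastoid (-1.77, 95% interval -2.86 to -0.68, limma adjusted p = 0.248), without overlap, and Hoxc5 differed by -0.95 (-1.44 to -0.46, adjusted p = 0.112) with both means under the background. Fitted with the muscle arrays alone, both passed, with adjusted p = 0.00164 and 0.0219, as did Hoxa6 and Hoxb6 (0.0148 and 0.0261). Hoxa4 had the opposite sign and differed by 0.75 (0.39 to 1.12, adjusted p = 0.0713) with every neck value above every thigh value, and it passed without tumor 5 (0.0412) or quadriceps 4 (0.0198).

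In HoxB the interval for Hoxb4, which was above background in both muscles, was -0.43 to 0.26, which bounds a difference without showing equality. The Hoxa10 call (-0.71, adjusted p = 0.0434) was lost without any 1 of 11 arrays: tumor 4, aortas 1, 3 and 4, quadriceps 1, 3 and 4, or each sternocleidomastoid array (adjusted p = 0.0535 to 0.175). The Hoxa6 and Hoxc5 differences passed without tumor 3 (0.0445) and without tumor 6 (0.0237), respectively. Brown adipocyte markers averaged 7.95 to 9.41 in the sternocleidomastoid arrays and 6.29 to 7.79 in the quadriceps arrays (8 of 8 markers measured), and their part in the Hox differences was not tested. A separate probe set that carries both Hoxa7 and Mira lay at 5.10 to 5.60 in sternocleidomastoid and 7.05 to 7.22 in quadriceps.

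**Figure D2:**
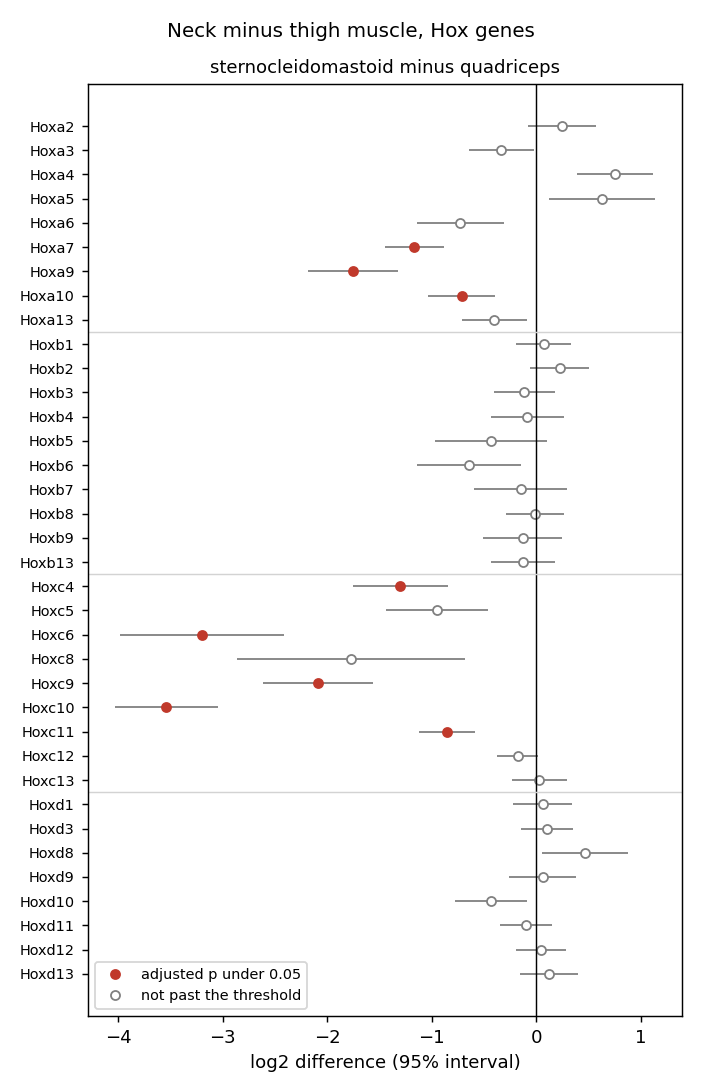
Difference of each Hox gene between the muscles (sternocleidomastoid minus quadriceps, log2 units, x axis) with its 95% interval, 4 arrays per muscle. Filled points passed the limma threshold: the 8 of them lie in HoxA and HoxC, all to the left of 0, and reach -3.54 at Hoxc10.

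The normal aorta was then set against each muscle. Against quadriceps, 5′ genes of HoxA and HoxC were lower in aorta, as were Hoxc4, Hoxd8 and Hoxd9. Genes at the 3′ end of HoxB and Hoxa2 and Hoxa5 were higher. Hoxd9, the only 5′ gene of HoxD that passed, was under the background in all 4 tissues. Against sternocleidomastoid, central genes of HoxA, HoxB and HoxC were higher in aorta and Hoxd8 and Hoxd9 lower. Of the 36 Hox genes, 5 rose and 9 fell in aorta relative to quadriceps, where 15% of all genes rose, 14% fell and 29.1% did either. Relative to sternocleidomastoid 11 rose and 2 fell, where 14.2% and 12.8% of all genes did, 27% in all. Without overlap, aorta was higher than quadriceps for 7 Hox genes (18.6% of all genes) and lower for 11 (16.9%), and higher than sternocleidomastoid for 14 (18.6%) and lower for 2 (15.1%). The 9 that were lower than in quadriceps included 7 of the 15 measured genes with paralog numbers 9 to 13, and the 11 that were higher than in sternocleidomastoid included 8 of the 11 with numbers 5 to 8.

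Hoxc10 measured 4.97, 4.71, 4.99 and 4.87 in the aortas, all under the background and far below the quadriceps values given above. The difference was -3.67 ± 0.24 log2 units, aorta minus quadriceps (limma adjusted p = 6.62e-10), at least 9.30-fold, whereas against sternocleidomastoid it was -0.13 (95% interval -0.63 to 0.36). Hoxc9 was likewise low in every aorta, at 4.55, 4.35, 4.72 and 4.6, and differed from quadriceps by -2.30 ± 0.25 (limma adjusted p = 8.65e-07), at least 2.86-fold. Hoxa9 (-1.59 ± 0.21) and Hoxa10 (-0.94 ± 0.15) were lower in aorta too (limma adjusted p = 7.06e-06 and 7.76e-05).

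Hoxc6 did not share the aortic pattern of its posterior neighbours. The aorta values were 6.67, 6.67, 7.0 and 7.0, between the high thigh values and the low neck values with no overlap on either side. Aorta exceeded sternocleidomastoid by 2.31 ± 0.38 (limma adjusted p = 0.000109), at least 2.85-fold, and differed from quadriceps by -0.89 (95% interval -1.67 to -0.10, adjusted p = 0.0894, or 0.000445 with the arrays of these tissues alone). Hoxd8, a central HoxD gene, was at 5.82, 5.41, 5.91 and 5.37 in aorta, 6.71, 6.86, 6.40 and 7.11 in quadriceps and 7.35, 7.12, 7.09 and 7.39 in sternocleidomastoid. Every aorta value was below every muscle value. The differences were -1.61 ± 0.19 against sternocleidomastoid and -1.14 ± 0.19 against quadriceps (limma adjusted p = 3.86e-06 and 0.000142).

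The central HoxC genes were higher in aorta only relative to sternocleidomastoid. Some genes of the 3′ and central HoxA and HoxB segments were higher in aorta than in quadriceps, sternocleidomastoid or both. Hoxa5, which is known in lung and vessel development, stood at 7.46, 7.95, 7.91 and 7.92 in aorta, against 6.57, 6.28, 6.15 and 6.29 in quadriceps and 6.77, 7.16, 6.48 and 7.41 in sternocleidomastoid. The aortas were above all muscle arrays, most narrowly above sternocleidomastoid. The excess was 1.49 ± 0.24 over quadriceps (limma adjusted p = 9.13e-05) and 0.85 ± 0.24 over sternocleidomastoid (0.0125), the second lost without sternocleidomastoid 3 (0.0555). Hoxb4, a 3′ gene, exceeded quadriceps by 1.06 ± 0.17 and sternocleidomastoid by 1.14 ± 0.17 (limma adjusted p = 5.83e-05 and 3.25e-05). Hoxb3 did so by 0.60 and 0.71, and Hoxa7 exceeded sternocleidomastoid by 0.87 ± 0.13.

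Some smaller calls against sternocleidomastoid were lost with the housekeeping centring described below (Hoxa3, Hoxa6, Hoxc5 and Hoxc8, adjusted p = 0.0518 to 0.194) or without single arrays. Hoxa3 was lost without aorta 1, 2 or 3 or any sternocleidomastoid array (adjusted p = 0.0531 to 0.124), Hoxc8 without aorta 3 or 4 or any sternocleidomastoid array (0.0537 to 0.117), and Hoxc5 without aorta 3, aorta 4 or sternocleidomastoid 2 (0.0541 to 0.0652). The brown adipocyte and heart muscle markers given above stood higher in every aorta than in any muscle array, and their part in these Hox differences was not tested.

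The tumors were compared with aorta, the vessel of the design. Within HoxA the change ran along the cluster: Hoxa4, Hoxa5 and Hoxa7 fell in tumors and Hoxa9, Hoxa10 and Hoxa13 rose. Hoxd8 rose most, by 1.67 ± 0.17 log2 units, and Hoxb6, Hoxb7, Hoxd3 and Hoxd9 rose less. No HoxC gene passed the threshold. Of the 36 Hox genes, 8 rose and 3 fell, where 18.6% of all genes rose, 17.5% fell and 36.2% did either, so the share of Hox genes that rose (22.2%) was near the background and the share that fell (8.33%) was under it. The 4 that rose among the 15 genes with paralog numbers 9 to 13 were Hoxa9, Hoxa10, Hoxa13 and Hoxd9, and 0 of these 15 fell. Without overlap, tumors were higher for 7 Hox genes (12.2% of all genes) and lower for 4 (11.5%).

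Hoxd8 ranged from 6.95 to 8.02 in the tumors, with a median of 7.22, and the aorta values, given above, did not exceed 5.91. All 7 tumors lay above all 4 aortas (limma adjusted p = 3.88e-07), a fold of 3.17, and within the range of the muscles or above it. Hoxa5 ranged from 5.81 to 7.34 in the tumors with a median of 6.45, below every aorta. It fell by 1.35 ± 0.22 log2 units (limma adjusted p = 5.43e-05), with its highest tumor value, in tumor 5, just under the lowest aorta.

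For these oppositely placed genes, 1 from each direction, the 250 bases before the RefSeq gene start (GRCm38.p6) are shown, written on the gene's strand with the CCAAT-box match in capitals.
Hoxa5: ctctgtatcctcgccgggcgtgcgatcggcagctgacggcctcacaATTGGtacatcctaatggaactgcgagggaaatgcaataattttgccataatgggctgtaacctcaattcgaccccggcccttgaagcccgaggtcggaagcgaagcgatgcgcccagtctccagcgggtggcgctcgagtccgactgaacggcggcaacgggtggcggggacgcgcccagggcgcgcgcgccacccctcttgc
Hoxd8: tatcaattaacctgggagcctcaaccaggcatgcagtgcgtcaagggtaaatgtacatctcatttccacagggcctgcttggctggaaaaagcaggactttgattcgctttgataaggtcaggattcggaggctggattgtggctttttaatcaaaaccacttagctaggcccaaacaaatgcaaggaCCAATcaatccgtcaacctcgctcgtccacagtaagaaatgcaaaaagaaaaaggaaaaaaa
The Hoxa5 window (chr6:52204588-52204837, minus strand) has a GC content of 63.6% and the Hoxd8 window (chr2:74704365-74704614, plus strand) 44.4%, around a median of 52.4% over all 32851 such windows. The CCAAT match lies at bases -204 to -200 from the start in the Hoxa5 window, where it is on the opposite strand and so is printed as ATTGG, and at -62 to -58 in the Hoxd8 window. On both strands, windows were also searched for the joint Pbx and Hox motif TGATNNAT, the Meis and Pknox motif spelled TGACAG, and the TATA box spelled TATAAA. None was found in either window. Of all windows 7.68% held the first, 15.9% the next, 12.4% the last, and 33.8% the CCAAT box. A match is a description of letters only. Promoter entries were found for 20 of the 36 measured genes.

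In the remaining HoxA genes, Hoxa4 fell by 0.99 ± 0.15 and Hoxa7 by 0.63 ± 0.12 in tumors, and Hoxa9 rose by 1.09 ± 0.18, Hoxa10 by 0.66 ± 0.13 and Hoxa13 by 0.62 ± 0.13 (limma adjusted p = 3.99e-05 to 0.000808). None of these 5 overlapped between tumors and aortas. The 3 that rose were under the background in aorta, and against it Hoxa9 was at least 1.66-fold and Hoxa13 at least 1.48-fold higher in tumors. The tumor mean of Hoxa10 (5.32) was also under that aorta background (5.34), so its rise has no such bound. On the probe set shared by Hoxa7 and Mira, aortas lay at 7.05 to 7.31 and tumors at 5.09 to 7.66. Tumors 5 and 6 (7.66 and 7.40) were above every aorta there, and the other tumors were below. In HoxB, Hoxb7 rose by 0.76 ± 0.19 (limma adjusted p = 0.00317). Hoxb6 rose by 0.60 ± 0.21 (adjusted p = 0.0317), a call lost without tumor 1, 5 or 6 or aorta 1, 3 or 4 (0.055 to 0.0822). In HoxD, Hoxd3, which was under the background in aorta, rose by 0.38 ± 0.11, at least 1.09-fold against that background. Hoxd9, dim in both tissues, rose by 0.39 ± 0.14, a call lost without tumor 3 or 4 or aorta 1, 2 or 4 (0.0503 to 0.111).

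When arrays were centred on 12 housekeeping genes, which moved the median of all genes from -0.02 to -0.11, 5 Hox genes rose and 3 fell, Hoxb6, Hoxd3 and Hoxd9 losing their calls. Brown adipocyte markers were at 5.05 to 8.26 in tumors and heart muscle markers at 5.22 to 6.04, below the aortas in every case, and their part in these differences was not tested.

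**Figure D3:**
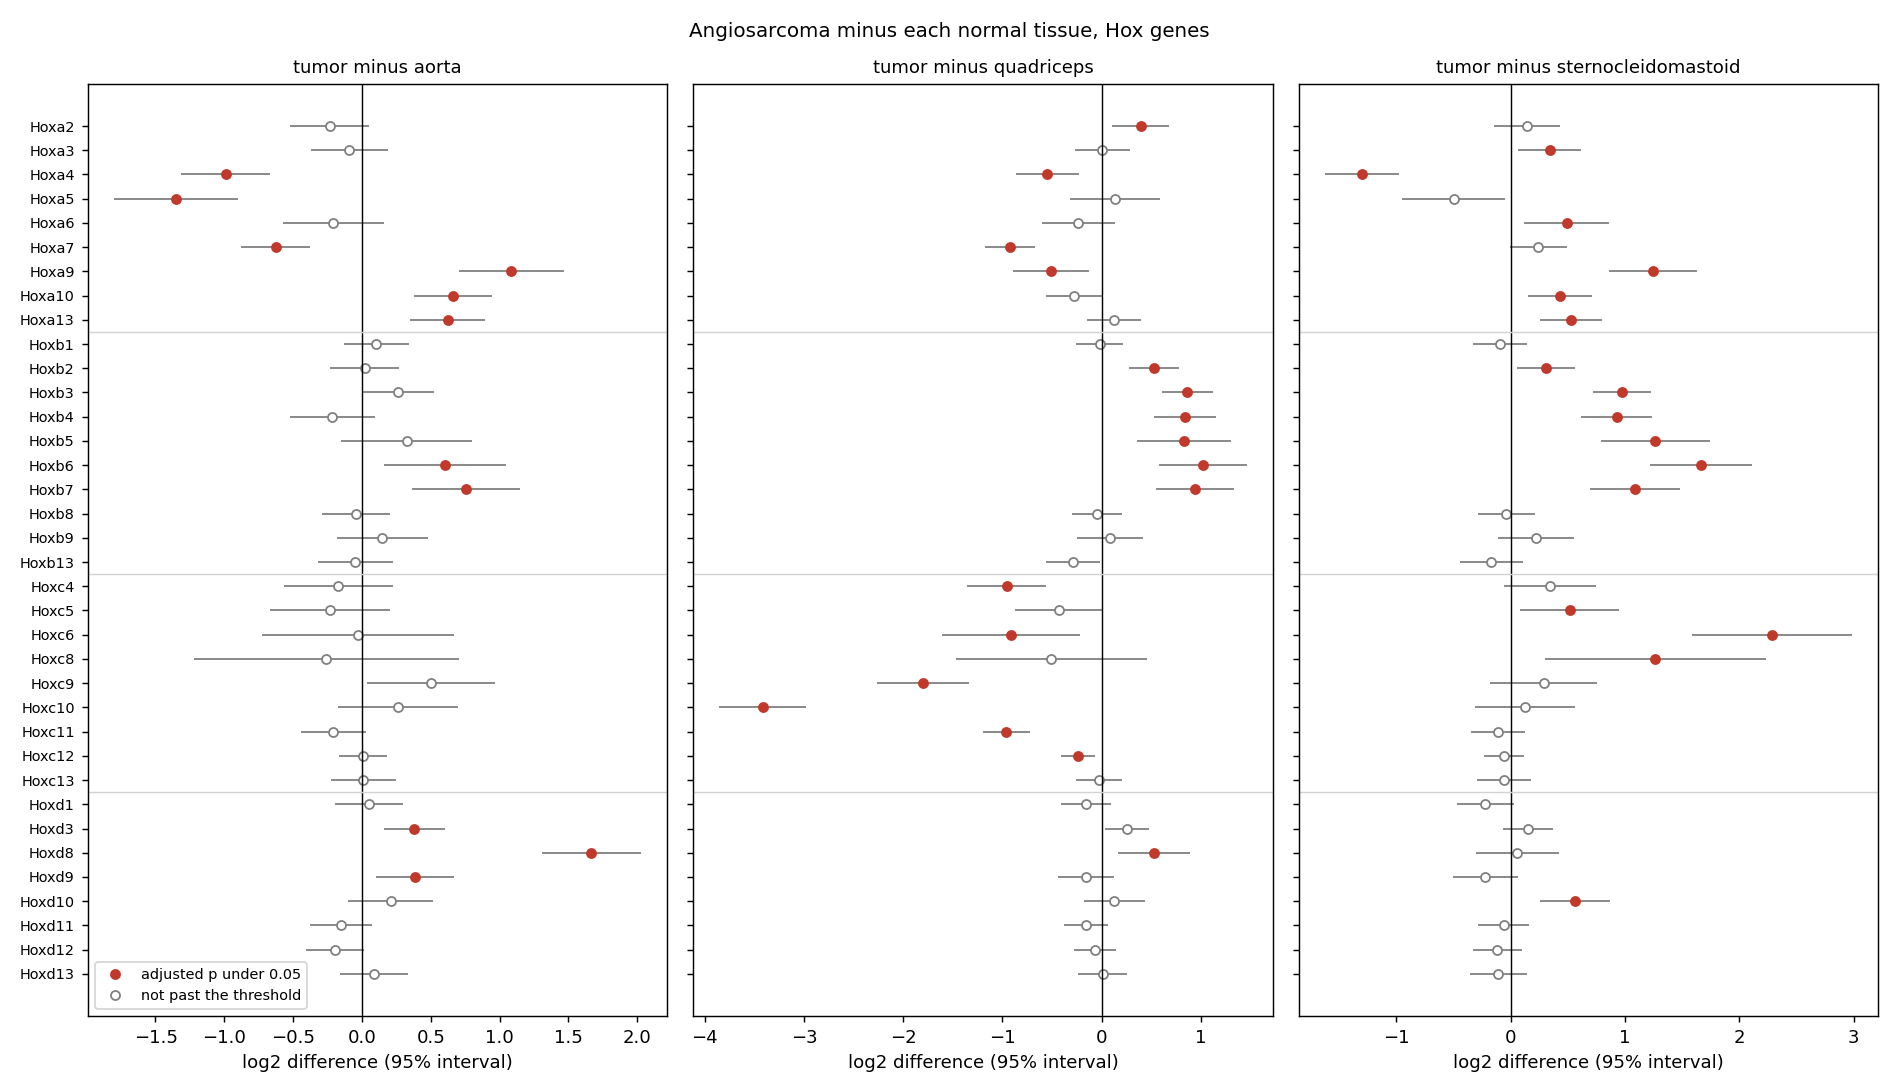
Difference of each Hox gene between the 7 tumors and each normal tissue (tumor minus tissue, log2 units, with 95% intervals; the 3 panels have separate x axes, 4 arrays per tissue). Filled points passed the limma threshold: HoxA splits by sign against aorta, Hoxb2 to Hoxb7 lie to the right of 0 against both muscles, and Hoxc10 reaches -3.41 against quadriceps.

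Against the muscles, 6 of 10 HoxB genes, Hoxb2 to Hoxb7, rose in tumors and 0 fell. They rose relative to quadriceps, by 0.53 to 1.02 log2 units, and relative to sternocleidomastoid, by 0.31 to 1.66. HoxC went opposite ways: 6 of 9 genes fell relative to quadriceps and 3 of 9 rose relative to sternocleidomastoid. Relative to quadriceps 8 Hox genes rose and 9 fell, where 22.8% of all genes rose, 22% fell and 44.7% did either. Relative to sternocleidomastoid 15 rose and 1 fell, where 23.2% rose, 22.6% fell and 45.9% did either. Without overlap, tumors were higher than quadriceps for 4 Hox genes (16.7% of all genes) and lower for 4 (15.8%), and higher than sternocleidomastoid for 8 (17%) and lower for 1 (15.5%). These comparisons share the tumor arrays.

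Hoxb6 gave the largest HoxB difference. It ranged from 5.52 to 7.16 in tumors (median 6.46), and measured 5.77, 6.11, 5.75 and 5.80 in aorta, 5.53, 5.27, 5.51 and 5.46 in quadriceps and 4.97, 4.93, 4.70 and 4.59 in sternocleidomastoid. The tumors were all above the neck muscle, and 1 tumor reached down into the thigh values. Hoxb6 rose by 1.66 ± 0.21 over sternocleidomastoid (limma adjusted p = 2.1e-06), at least 2.20-fold, and by 1.02 ± 0.21 over quadriceps (0.000508).

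The neighbouring HoxB genes rose against both muscles too. Hoxb3 rose by 0.86 ± 0.12 over quadriceps and 0.98 ± 0.12 over sternocleidomastoid, and Hoxb4 by 0.84 ± 0.15 and 0.93 ± 0.15, each without overlap (limma adjusted p at most 8.71e-05). A probe set shared by Hoxb3 and Hoxb2 showed no such rise. It lay at 5.53 to 6.16 in tumors, 5.76 to 6.01 in quadriceps and 6.04 to 6.32 in sternocleidomastoid, and was not tested. Hoxb7 rose by 0.94 ± 0.19 and 1.09 ± 0.19. Hoxb5 rose by 0.83 ± 0.23 and 1.27 ± 0.23, but a further probe set of Hoxb5 lay between 5.69 and 6.11 in all 19 arrays and showed no such difference. The mean of both probe sets still passed in these comparisons. Hoxb1, Hoxb8, Hoxb9 and Hoxb13, at the ends of the cluster, passed in none of the 6 comparisons. Under alternatives some did. Hoxb13, under the background, was called lower in tumors than in quadriceps with either centring (limma adjusted p = 0.0274 and 0.00278). Hoxb8, also under it, was called lower there with housekeeping centring (0.0311). With tumors 5 to 7 alone, Hoxb9 was called higher than in aorta, quadriceps and sternocleidomastoid (0.0309, 0.0439 and 0.00966).

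In HoxC the tumors did not show the thigh pattern. Hoxc10 ranged from 4.77 to 6.31 in tumors with a median of 4.92, against 8.47 to 8.72 in quadriceps, a difference of -3.41 ± 0.21 (limma adjusted p = 1.26e-10), at least 9.51-fold. Hoxc9 ranged from 4.70 to 6.29 with a median of 4.76, against 6.71 to 7.12, a difference of -1.80 ± 0.22 (1.47e-06), at least 2.93-fold. In both genes 1 tumor, tumor 6, stood well above the other 6, yet below every quadriceps array. Hoxc4 (-0.95 ± 0.19) also fell relative to quadriceps. So did Hoxc11 (-0.96 ± 0.11), but its tumor mean of 4.36 was under the background and its quadriceps mean of 5.32 on it, which bounds the difference at only 1.01-fold. Hoxc6, by contrast, was above every sternocleidomastoid array in every tumor, by 2.29 ± 0.33 (limma adjusted p = 1.12e-05), at least 2.79-fold.

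In HoxA the tumors held less Hoxa4 than either muscle (-0.55 ± 0.15 and -1.30 ± 0.15, limma adjusted p = 0.00636 and 8.18e-07). Hoxa9, by contrast, was higher than in sternocleidomastoid (1.25 ± 0.18, 1.21e-05), and Hoxa7 was lower than in quadriceps (-0.92 ± 0.12, 2.33e-06). On the probe set that Hoxa7 shares with Mira, tumors 5 and 6 (7.66 and 7.40) were above every quadriceps array (7.05 to 7.22). The other tumors were below. Hoxa13 rose by 0.53 ± 0.13 and Hoxd10, a HoxD gene of the 5′ end, by 0.56 ± 0.15 relative to sternocleidomastoid. Hoxa9 was called in 5 of the 6 comparisons among the 4 tissues, the most of any Hox gene.

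Several smaller calls were lost when a single array was left out. Relative to quadriceps, Hoxc6 (-0.91, adjusted p = 0.0317) was lost without tumor 1, 2, 3 or 4 or quadriceps 1, 3 or 4 (0.0581 to 0.0882), Hoxa9 (-0.51) without tumor 3 or quadriceps 1, 3 or 4 (0.0576 to 0.0726), Hoxa2 (0.39) without quadriceps 1 or 4 (0.0665 and 0.127), Hoxc12 (-0.24) without quadriceps 2 or 3 (0.074 and 0.107) and Hoxd8 (0.53) without quadriceps 3 (0.0915). Relative to sternocleidomastoid, Hoxc8 (1.27) was lost without tumor 5, 6 or 7 or sternocleidomastoid 1, 2 or 3 (0.0517 to 0.0732) and Hoxa6 (0.49) without tumor 5 or 6 or sternocleidomastoid 1 or 3 (0.052 to 0.108). Hoxb2 (0.31) was lost without tumor 1, 3 or 7, quadriceps 2 or sternocleidomastoid 2 or 4 (0.0501 to 0.221), Hoxa3 (0.34) without 8 of the arrays (tumor 1, 4, 5 or 6 or any sternocleidomastoid; 0.0502 to 0.0959) and Hoxc5 (0.52) without 12 of the arrays (all but tumors 1 to 4, quadriceps 3 and 4 and sternocleidomastoid 1; 0.0544 to 0.14), with both Hoxc5 means under the background.

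Scaling mattered here. Centred on the housekeeping genes, which moved the median of all genes from -0.04 to -0.28 against quadriceps and from -0.03 to -0.23 against sternocleidomastoid, 6 Hox genes rose and 18 fell relative to quadriceps, and 9 rose and 9 fell relative to sternocleidomastoid. Hoxb3, Hoxb4, Hoxb5, Hoxb6 and Hoxb7 rose relative to both muscles under every scaling, and Hoxb2 lost its call against sternocleidomastoid. Skeletal muscle markers were at 5.08 to 10.6 in tumors and 11.8 to 12.4 in the muscles, and endothelial and leukocyte markers were higher in tumors, so cell makeup moved with these comparisons and its part was not tested.

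The tumors differed among themselves in HoxC. Hoxc6 was 6.17, 6.17, 5.85 and 6.26 in tumors 1 to 4 and 7.71, 7.82 and 7.66 in tumors 5 to 7. Hoxc8, which patterns the lower thoracic region, was 5.14, 5.67, 4.88 and 6.04 in tumors 1 to 4 and 7.64, 7.74 and 6.98 in tumors 5 to 7. Hoxc4 and Hoxc5 split at the same point, at 5.46 to 5.97 against 6.18 to 6.68 and at 3.79 to 3.97 against 4.29 to 5.06, Hoxc5 being under the background throughout. The sample titles of tumors 1 to 4 and of tumors 5 to 7 come from separate runs of numbers, which the labels do not call batches, so such a run and a difference between tumors cannot be told apart.

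Of the 36 Hox genes, 4 did not overlap between these runs with tumors 5 to 7 higher and 2 with them lower (Hoxb8 and Hoxd9), against 4.45% and 4.67% of all genes. All 4 higher genes were the consecutive measured genes Hoxc4, Hoxc5, Hoxc6 and Hoxc8. Compared with aorta, Hoxc6 differed by -0.72 with tumors 1 to 4 alone (limma adjusted p = 0.00105) and by 0.90 with tumors 5 to 7 alone (0.000529), while all 7 tumors together gave -0.03 (adjusted p = 0.963). Hoxc8 differed by -1.12 (0.00455) and 0.90 (0.0307) in the same fits. Relative to quadriceps, Hoxc6 differed by 0.01 with tumors 5 to 7 alone (adjusted p = 0.968).

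Beyond Hoxc8 only tumor 6 was high. Its Hoxc9 and Hoxc10 values of 6.29 and 6.31 compare with 4.70 to 5.26 and 4.77 to 5.32 in the other 6 tumors. The median SD of the Hox genes among tumors was 0.28 log2 units, against 0.21 for all genes, and 6 of 36 Hox genes had an SD above 0.5 (Hoxb5, Hoxb6, Hoxc6, Hoxc8, Hoxc9 and Hoxc10), where 11.5% of all genes did. General adipocyte markers averaged 8.96 to 10.8 in tumors 4 to 6 and 5.82 to 7.03 in the other 4, and skeletal muscle markers 5.08 and 5.46 in tumors 5 and 6 and 6.88 to 10.6 in the other 5. Tumor 4, low in Hoxc6, was high in adipocyte markers, and tumor 7, high in Hoxc6, was low in them and high in muscle markers. The part of either in the HoxC values was not tested.

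**Figure D4:**
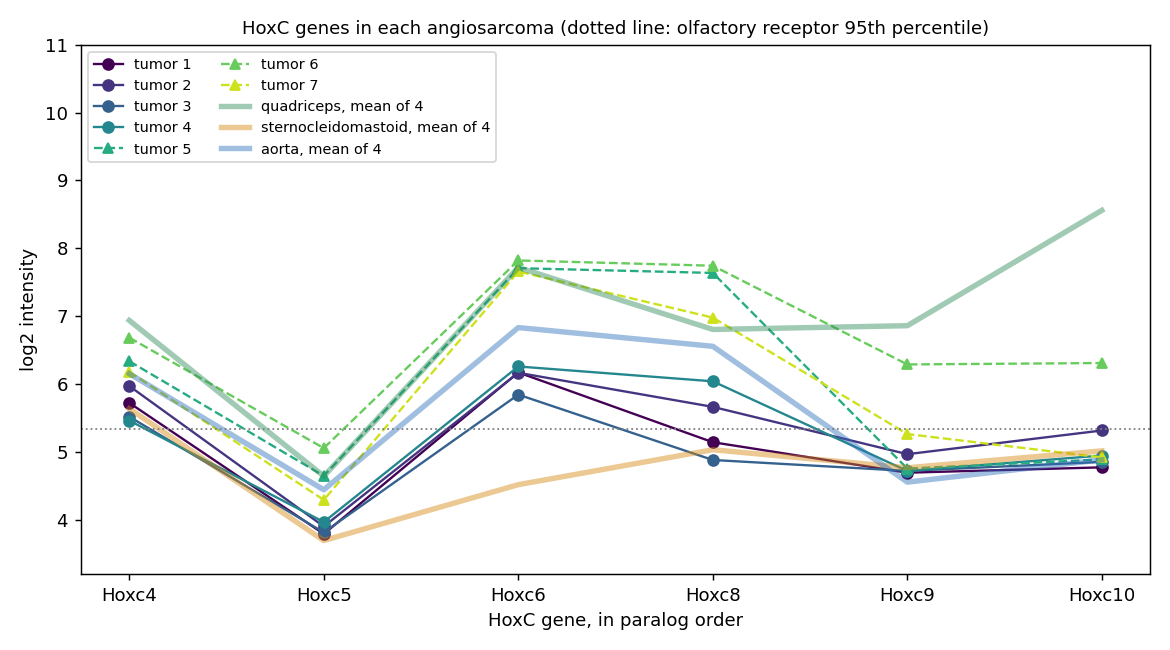
Log2 intensity of 6 HoxC genes in paralog order (x axis) for each of the 7 tumors (thin lines; tumors 1 to 4 solid, tumors 5 to 7 dashed) with the means of the 3 normal tissues (thick lines) and the olfactory receptor 95th percentile (dotted). Lines only join values of a sample; tumors 5 to 7 lie above tumors 1 to 4 from Hoxc4 to Hoxc8, and tumor 6 alone is above 6 at Hoxc9 and Hoxc10.

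Among the cofactors through which Hox proteins bind DNA, Pbx3 was high in tumors, Meis1 and Meis2 in aorta and Pknox2 in muscle. Of the 8 measured, 2 rose and 2 fell in tumors relative to aorta and 4 rose and 2 fell relative to each muscle, where 36.2%, 44.7% and 45.9% of all genes did either. With housekeeping centring 1 rose and 2 fell relative to aorta, 2 rose and 3 fell relative to quadriceps and 3 rose and 2 fell relative to sternocleidomastoid. Between the muscles 0 of 8 passed, where 0.433% of all genes did. Pbx3, a homeodomain partner of Hox proteins, ranged from 7.65 to 8.16 in tumors and from 6.13 to 7.01 in the 12 normal arrays. The tumors were above all normal arrays, by 1.24 ± 0.14 over aorta, 1.5 ± 0.14 over quadriceps and 1.54 ± 0.14 over sternocleidomastoid (limma adjusted p = 1.04e-06, 3.53e-08 and 2.55e-08). Meis1, a cofactor of posterior Hox proteins, was lower in every tumor (5.45 to 6.43) than in any aorta (6.85 to 7.26), by -1.26 ± 0.17 (7.68e-06).

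Meis2 was highest in aorta, at 7.58, 7.66, 7.58 and 7.91, and lowest in quadriceps, where 3 arrays lay at 5.37 to 5.57 and quadriceps 4 at 6.44, against 6.40 to 6.87 in sternocleidomastoid (a difference of 0.90 ± 0.28, limma adjusted p = 0.288). It fell in tumors relative to aorta by 0.97 ± 0.24 (limma adjusted p = 0.0038), although tumor 5 (7.88) lay within the aorta range, and with tumors 5 to 7 alone the difference was -0.57 (0.145). Pknox2, a Meis-related cofactor, was high in muscle: 8.28 to 9.0 in the 8 muscle arrays and 5.79 to 6.32 in tumors and aortas. Tumors differed by -2.62 ± 0.13 from quadriceps and -2.33 ± 0.13 from sternocleidomastoid (limma adjusted p = 7.62e-12 and 3.88e-11).

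**Figure D5:**
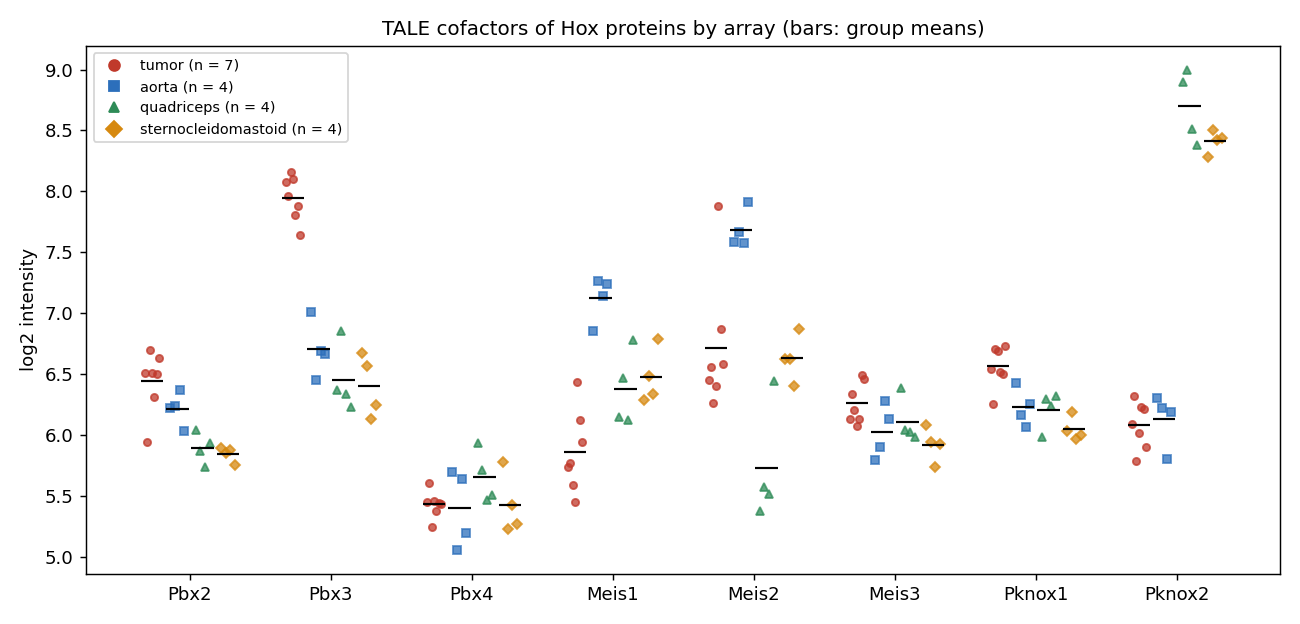
Log2 intensity of the 8 measured cofactor genes (x axis) in every array, 7 tumors and 4 arrays of each normal tissue, with group means as bars. Pbx3 is higher in all tumors than in all normal arrays, Meis1 and Meis2 are highest in aorta apart from tumor 5 for Meis2, and Pknox2 is high in both muscles.

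Of the 6 listed microRNA genes of the clusters, 4 had a probe set of their own, and the labels do not say whether these read precursors or the mature sequences shown above. Mir196a-2, which lies in HoxC, fell in tumors relative to aorta (-0.79 ± 0.20, limma adjusted p = 0.00461) and quadriceps (-0.73 ± 0.20, 0.00583), with all group means under the background. With tumors 1 to 4 alone the difference from quadriceps was -0.51 (0.0644). Its call against sternocleidomastoid (-0.56, 0.0313) was lost without tumor 3, 5, 6 or 7 or sternocleidomastoid 2 or 4 (0.0542 to 0.0964). Mir10b, Mir196a-1 and Mir615 passed in no comparison. Mir196a-1 was at 7.12 in tumor 6, and at 3.48 to 4.73 in the other 18 arrays.

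The Hox genes described as miR-196 targets went both ways in tumors relative to aorta and quadriceps, and no measured miR-10 target fell in tumors. Of 6 for the miR-196 seed (Hoxa7, Hoxa9, Hoxb7, Hoxb8, Hoxc8 and Hoxd8), 3 rose and 1 fell in tumors relative to aorta, 2 rose and 2 fell relative to quadriceps, and 3 rose and 0 fell relative to sternocleidomastoid, with median differences of 0.36, -0.28 and 0.67 beside -0.02, -0.04 and -0.03 over all genes. Of 4 measured for miR-10 (Hoxa3, Hoxb1, Hoxb3 and Hoxd10), 0 passed relative to aorta, 1 rose relative to quadriceps and 3 rose relative to sternocleidomastoid, with medians of 0.16, 0.07 and 0.45. Of all genes, 18.6% rose and 17.5% fell in tumors relative to aorta. The shares were 22.8% and 22% relative to quadriceps, and 23.2% and 22.6% relative to sternocleidomastoid. Between the muscles 2 of the 6 miR-196 targets, Hoxa7 and Hoxa9, fell and 0 rose, where 22.2% of the 36 Hox genes and 0.198% of all genes fell.

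The genes that flank the clusters outside the Hox stretch were compared too. Of 15 measured of 18 listed, 1 passed between the muscles: Skap2, an adaptor protein gene beside HoxA, was higher in sternocleidomastoid by 0.96 (limma adjusted p = 0.0395). That call was lost with quantile normalization (0.0643) and without any array among tumor 1, aortas 1 and 4, quadriceps 1 to 3 and the 4 sternocleidomastoid arrays (0.0524 to 0.162). Of the 15, 0 fell, where 0.198% of all genes fell. In tumors relative to aorta 3 flanking genes rose and 7 fell, where 18.6% and 17.5% of all genes did, and with housekeeping centring 1 rose and 7 fell. The largest difference was that of Hibadh, a mitochondrial valine-degradation enzyme near HoxA (-2.24). Of 12 listed antisense RNAs and Evx genes of the clusters, 4 were measured and Evx2 alone passed, lower in tumors than in quadriceps by 0.32 (adjusted p = 0.0238), a call lost without quadriceps 1 (0.101) or 2 (0.0897).

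Regulators known to set Hox expression were also compared. Of 21 listed and measured Cdx, Trithorax and Polycomb genes and related factors, 11 rose and 1 fell in tumors relative to aorta, 9 rose and 6 fell relative to quadriceps, 11 rose and 3 fell relative to sternocleidomastoid, where 36.2%, 44.7% and 45.9% of all genes did either. With housekeeping centring these counts were 6 and 1, 7 and 7, and 7 and 5. Between the muscles 0 passed. Ezh2, the catalytic subunit of the Polycomb complex that methylates histone H3, was higher in every tumor (8.4 to 9.21) than in any normal array (7.43 to 7.76), by 1.13 ± 0.12 over aorta. Rnf2, a ubiquitin ligase of the other Polycomb complex, rose by 0.81 ± 0.09 over aorta (limma adjusted p = 1.14e-06), and Pcgf2 by 1.34 ± 0.13 over quadriceps (3.6e-08). Other Polycomb genes went the opposite way against quadriceps. Phc1 lay at 6.36 to 6.93 in tumors and 7.17 to 7.39 in quadriceps, and Ring1 at 6.39 to 7.04 and 7.14 to 7.21.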

How the data were processed

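Expression was measured in 19 samples (7 tumors, 4 aortas, 4 quadriceps, 4 sternocleidomastoid). Per the labels' protocols, total RNA was extracted with a miRNeasy kit and biotin-labelled cRNA was hybridised to Affymetrix arrays. The deposited table was read as log2 intensity, since its values ran from 1.59 to 13.8 with array medians of 5.35 to 5.48. Partek 6.6 is named in the submitters' processing notes; the normalization is not given in the sources used here, and the values were used without rescaling except in the alternatives.

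Of 41345 probe sets, 23521 carried 1 gene symbol in the platform's annotation, 1814 several and 16010 none. The first kind gave 22180 genes, and for the 1082 genes with more than 1 such probe set the one with the highest mean was used. For each of the 6 pairs of the 4 tissues a two-sided moderated test was taken from 1 linear model of all arrays (lmFit, then eBayes, limma 3.58.1 under R 4.3.3), and p-values were adjusted over all genes by the Benjamini-Hochberg method. Tables, motif searches and figures were made with Python 3.11.15, pandas 2.3.3 and matplotlib 3.10.9. Sequences came from RefSeq tables on build GRCm38.p6.

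Hox genes named with values were the 2 with the largest absolute difference in each comparison among those past the threshold without overlap. Every normal sample's value is given for them, and the tumors by range and median or, for Hoxc6, in full. Further genes chosen after their values were seen are given by ranges or in full (Hoxc8, the cofactors, Mir196a-1, Ezh2, Phc1 and Ring1). The members, gene lists and tests were chosen with earlier results of these data known. The alternatives were quantile normalization, 2 centrings (on the median gene or 12 housekeeping genes), a mean across a gene's probe sets, removal of dim genes, eBayes run robustly with a trend, the compared tissues alone, stricter thresholds, tumors 1 to 4 or 5 to 7 alone, each array left out in turn and, chosen after seeing the data, the tumors without tumors 5 and 6.

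The fit was tested on simulated data for 22180 genes, in which 50 genes were changed at each of several sizes. Between tumors and aorta it recovered 52% of changes of 0.5 log2 units and 88% of changes of 1, with 13 false calls. Between the muscles it recovered 34% and 84%, with 6 false calls. The simulation gave each gene 1 spread for all tissues and changed 200 genes in all. In the data, 11.5% of genes had an SD above 0.5 in tumors, against 1.65% to 2.3% in the normal tissues. The recovery and false calls in the data may therefore differ. The number of arrays limits the precision.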

Additional observations from a re-analysis of the deposited data

Results flagged for a closer look

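In groups of 4 to 7 samples, a sample was marked when its gap to the nearest of the others took up an unusually large part of the group's range. Over the Hox genes, cofactors and cluster microRNAs 192 groups were examined and 14 samples were marked, and chance marks about 1 in 20 groups. Tumor 6 was marked 3 times, at 6.29 for Hoxc9, 6.31 for Hoxc10 and 7.12 for Mir196a-1, each the highest tumor value. The other marked tumors were tumor 3 for Hoxd8 (8.02, highest), tumor 4 for Hoxd12 (5.49, lowest) and tumor 5 for Meis2 (7.88, highest). Among aortas, aorta 1 was low for Hoxa5 (7.46) and for Mir10b (2.52), and aorta 2 was high for Hoxb6 (6.11). Among quadriceps arrays, the marked values were quadriceps 2 for Hoxd1 (4.53, low), quadriceps 4 for Hoxd9 (5.30, high) and quadriceps 1 for Meis3 (6.39, high). Among sternocleidomastoid arrays they were sternocleidomastoid 1 for Hoxb4 (6.46, high) and sternocleidomastoid 4 for Hoxd13 (4.67, low).

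A signal outside the main measurement came from a probe set that the annotation gives to both Hoxd4 and Hoxd3. Its lowest tumor value was 6.72, its highest 8.34, and the 12 normal arrays lay between 6.30 and 6.69, so every tumor was above every normal array. It was assigned to neither gene and was not tested.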

How the results depend on the processing

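Under the alternatives other than stricter thresholds, 8 of the 11 Hox calls between tumors and aorta were kept under all, 12 of 17 against quadriceps, 10 of 16 against sternocleidomastoid, 13 of 14 between aorta and quadriceps, 8 of 13 between aorta and sternocleidomastoid and 7 of 8 between the muscles; dim genes that were left out of a fit were not counted as lost. The 2 Hox genes with the largest difference in each comparison kept their direction and their call under each of these alternatives. Hoxc6 between tumors and quadriceps turned from -0.91 to 0.01 with tumors 5 to 7 alone. At an adjusted p under 0.01, 10 Hox genes remained past the threshold between tumors and sternocleidomastoid and 8 between aorta and sternocleidomastoid. With a minimum of 1 log2 unit, 3, 3 and 7 passed between tumors and aorta, quadriceps and sternocleidomastoid, 6 between aorta and quadriceps and 5 between aorta and sternocleidomastoid. With each array left out, the counts ranged from 9 to 11 (tumors and aorta), 14 to 18 (tumors and quadriceps), 12 to 17 (tumors and sternocleidomastoid), 14 to 16 (aorta and quadriceps), 10 to 14 (aorta and sternocleidomastoid) and 7 to 9 (the muscles). Without tumors 5 and 6, chosen after seeing the data, they were 12, 18 and 13 for the tumor comparisons. With the 90th percentile of olfactory receptor genes as background, 28 Hox genes lay above it in sternocleidomastoid; with the 99th, 14 did in tumors, 13 in quadriceps and 5 in sternocleidomastoid. No paired analysis was possible because replicate numbers were given in accession order only. Genes near background, such as Hoxc5 and Hoxd9, are limited by signal.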
